A study of Mus musculus with 6 samples.

Results

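The lung's conducting airways secrete a fluid that traps and kills inhaled microbes, and 9 genes of that secretion are described here in whole lung: the secretoglobins Scgb1a1, Scgb3a1 and Scgb3a2, the BPI fold proteins Bpifa1 and Bpifb1, the mucus genes Muc5b and Tff2, and the antibacterial genes Reg3g and Ltf. They were chosen by gene symbol, and each probe set (a group of short oligonucleotides for one transcript) that the platform annotation gives to a single one of these symbols was taken. This gave 10 probe sets for the 9 genes, of 18193 genes with such a probe set on the array. Bpifb1 had more than 1. All 10 passed the filter on dim signal. The list was drawn up with earlier results of the same group comparison known, so the group differences of these genes are given as a description and carry no test.

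Lungs came from adult female mice of an (AKR/J x FVB/NJ)F1 cross (AKR F1) and a (DBA/2J x FVB/NJ)F1 cross (DBA F1), both without any treatment named in the labels beyond Avertin anaesthesia before death, with 3 arrays per group. All of these parents are inbred strains, so every mouse of both groups carried one FVB/NJ chromosome set and the groups differed in the other set. The comparison asks how lung expression differs between these genotypes at rest. The labels do not say that each array came from a separate mouse, which animals were pooled if any were, or how much trachea was left on the lungs, and a difference in whole lung cannot tell fewer cells of a type from less RNA per cell.

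In mice, airway secretory cells are of several kinds. Club cells line the bronchioles and release secretoglobins, while goblet-like cells and submucosal glands, which in mice lie mainly around the trachea, release mucins and antimicrobial proteins. Secretoglobins are small secreted proteins, BPI fold proteins bind lipids, gel-forming mucins make the mucus that cilia carry out of the lung, and lectins and iron-binding proteins act on bacteria directly.

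Signals are log2 values per probe set, and the filter left 27022 probe sets and 13202 genes for the fit. The median signal of the 6 arrays lay between 5.46 and 5.49. The mean over the 8 measured lung identity markers, among them surfactant protein B (Sftpb), was 11.72 to 11.84 on the AKR F1 arrays. It was 11.59 to 11.69 on the DBA F1 arrays. In AKR F1 single markers ran from 6.27 for Nkx2-1 to 14.32 for Sftpc, above the filter level of 4.72. Of the 8, 7 had higher means in AKR F1 (median log2 difference 0.13), opposite to the genes described here. In 4 every AKR F1 array lay above every DBA F1 array. The share of all tested genes with that pattern was not counted, so nothing is read from it. The fit with limma called 2 of them higher in AKR F1, as it did 1.42% of all tested genes: Sftpb (0.32 ± 0.057 SE, n = 3 each, adjusted p = 0.0371) and Napsa, a protease of alveolar type II cells (0.34 ± 0.064 SE, adjusted p = 0.0437). Both calls were lost without AKR F1 replicate 1, AKR F1 replicate 2, DBA F1 replicate 2 or DBA F1 replicate 3, with adjusted p of 0.0683 to 0.163. One array stood apart from its group. AKR F1 replicate 3 carried squamous epithelium and skeletal muscle transcripts like the DBA F1 arrays, whereas AKR F1 replicates 1 and 2 did not. The mean of 11 squamous genes was 4.73, 4.66 and 9.07 on AKR F1 replicates 1 to 3 and 8.82, 9.36 and 8.63 on DBA F1 replicates 1 to 3.

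All 9 genes had higher mean signal in DBA F1 lung. The median log2 difference, AKR F1 minus DBA F1, was -0.95 over the 9 genes by their brightest probe set, against 0.015 over all tested genes. Ltf, Bpifa1, Reg3g and Scgb3a1 differed by more than 1 log2 unit, as 1.23% of all tested genes did in that direction. Tff2 and Muc5b were next, and Bpifb1, Scgb3a2 and Scgb1a1 had the smallest differences. In 6 of the 10 probe sets every DBA F1 array lay above every AKR F1 array, which held for 9.02% of all tested probe sets. The fit with limma called 2 of the 10 at an adjusted p under 0.05, those of Ltf and Scgb3a1, both higher in DBA F1, against 1.05% of all tested probe sets called in that direction. Nothing is read from these counts, since this contrast helped to choose the genes. Without AKR F1 replicate 1, AKR F1 replicate 2, DBA F1 replicate 1 or DBA F1 replicate 2 the number called was 0, and without DBA F1 replicate 3 it was 5.

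**Figure D1:**
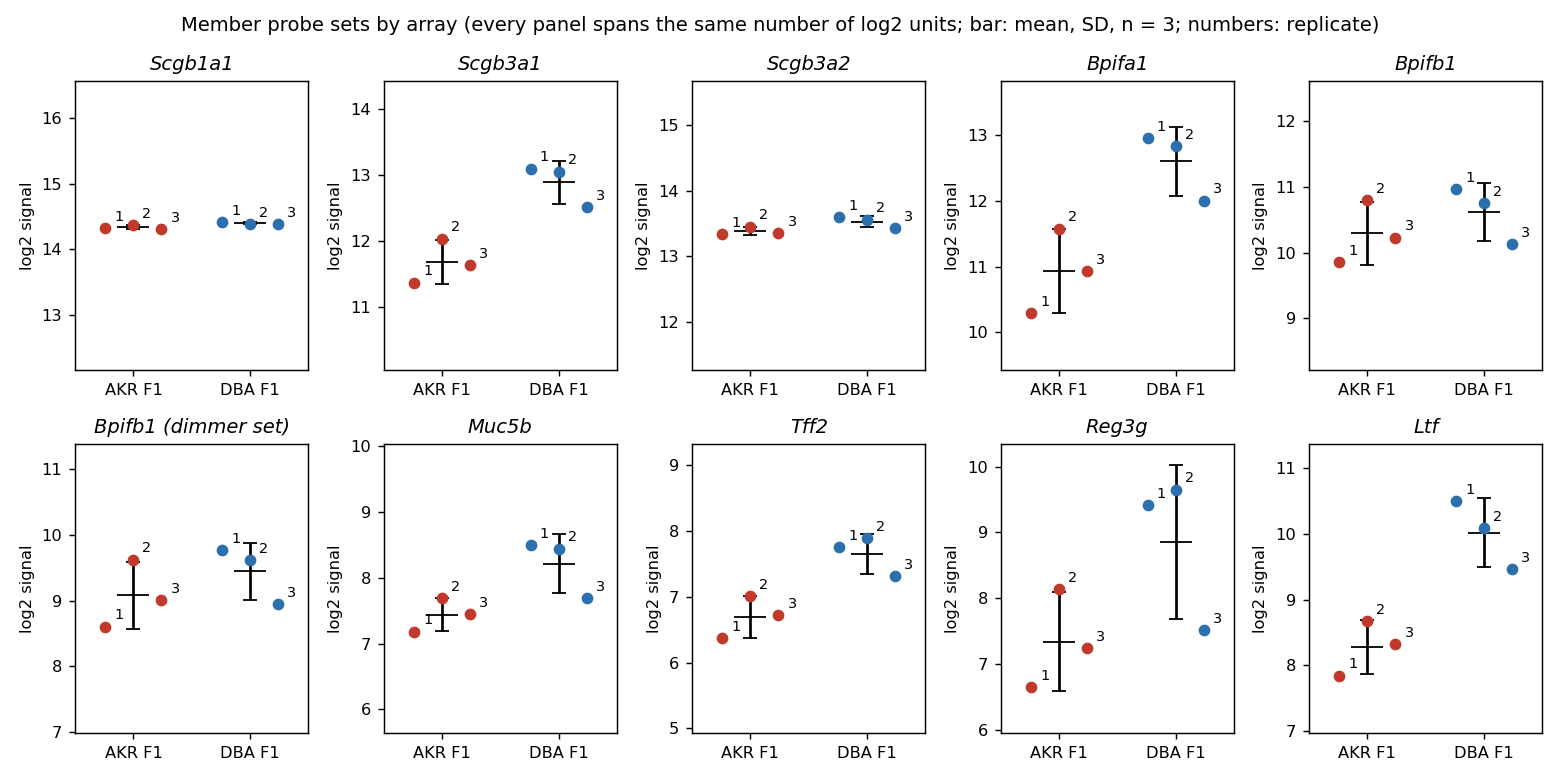
Log2 signal (vertical axis) of the 10 probe sets on each array, with AKR F1 arrays in red and DBA F1 arrays in blue, numbered by replicate; the horizontal mark and bar are the mean and SD of 3 arrays, and the vertical axes have different levels but equal length. Scgb1a1 and Scgb3a2 are nearly flat, Ltf has the widest gap between the groups (0.79), and the groups overlap for Scgb3a2, Bpifb1 and Reg3g.

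Among the secretoglobins the largest difference was that of Scgb3a1, a secreted protein known from the larger airways. Scgb3a1 had signals of 11.36, 12.03 and 11.63 in AKR F1 replicates 1 to 3 and 13.10, 13.05 and 12.52 in DBA F1 replicates 1 to 3. Every DBA F1 array was above every AKR F1 array, with 0.48 between the nearest pair. The means were 11.68 ± 0.34 in AKR F1 and 12.89 ± 0.32 in DBA F1 (SD, n = 3 each), a log2 difference of -1.21 ± 0.21 (limma SE), which is 2.32-fold higher in DBA F1.

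The other secretoglobins are the main products of club cells, and their signals varied less between arrays. Scgb3a2, a secretoglobin of the bronchiolar epithelium, had 13.34, 13.45 and 13.36 in AKR F1 and 13.59, 13.56 and 13.43 in DBA F1, so AKR F1 replicate 2 lay above DBA F1 replicate 3. Its log2 difference was -0.14 ± 0.054 (SE, n = 3 each). Scgb1a1, the club cell secretory protein, had 14.33, 14.37 and 14.31 in AKR F1 and 14.41, 14.39 and 14.39 in DBA F1. The groups did not overlap, but only 0.016 separated them, and the log2 difference was -0.059 ± 0.033 (SE, n = 3 each). Its signal lay on average 0.12 below the lowest of the 6 array maxima, which leaves little room to show a difference. Scgb3a2 lay 1.04 below that maximum.

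The BPI fold genes Bpifa1 and Bpifb1 lie on chromosome 2 with 1 gene between them, Bpifa5, in the RefSeq gene order, and they differed by unlike amounts between the groups. Bpifa1 (SPLUNC1) is an abundant secreted protein of the upper and large airways with antibacterial and surface-active properties. Its signals were 10.29, 11.58 and 10.93 in AKR F1 replicates 1 to 3 and 12.96, 12.84 and 12.01 in DBA F1 replicates 1 to 3. The lowest DBA F1 array was 0.43 above the highest AKR F1 array. The log2 difference was -1.67 ± 0.36 (SE, n = 3 each), or 3.18-fold higher in DBA F1.

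Bpifb1 (LPLUNC1), a longer relative released by goblet and gland cells, had 9.85, 10.79 and 10.23 in AKR F1 replicates 1 to 3 and 10.97, 10.75 and 10.13 in DBA F1 replicates 1 to 3. The groups overlapped, since AKR F1 replicate 2 was above DBA F1 replicates 2 and 3. The log2 difference was -0.32 ± 0.28 (SE, n = 3 each), smaller than the spread inside either group, where the highest and lowest arrays were 0.94 apart in AKR F1 and 0.84 apart in DBA F1. Its other probe set gave -0.36 ± 0.30. After each was centred on its own mean, the profiles of these probe sets differed by a root mean square of 0.035 log2 over the 6 arrays. Bpifa5, which lies between them, had 5.61, 5.08 and 6.29 in AKR F1 and 5.43, 5.65 and 5.58 in DBA F1, with overlapping groups and a log2 difference of 0.11 ± 0.28 (limma adjusted p = 0.879). Of 14 other BPI fold family genes in the list, 9 were on the array, 4 were bright enough to be tested, and 0 were called in either direction (median log2 difference 0.072).

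The sequences before the transcription starts are shown for the members whose starts were available. Among these, Bpifa1, Ltf and Scgb3a1 had large differences, Reg3g the widest spread and Bpifb1 a small difference. Each sequence is the 250 bases before a RefSeq start on GRCm38.p6, written 5′ to 3′ along the gene. Starts were taken from RefSeq's table for 5 of the 9 genes, with 6 starts. Capitals mark matches, on either strand, to the forkhead core TGTTTAC or TATTTAC, the NKX2-1 core CAAGTG or the TATA box TATAAA. Forkhead factors and NKX2-1 are transcription factors of lung epithelium.
Bpifa1, chr2:154142630-154142879, plus strand: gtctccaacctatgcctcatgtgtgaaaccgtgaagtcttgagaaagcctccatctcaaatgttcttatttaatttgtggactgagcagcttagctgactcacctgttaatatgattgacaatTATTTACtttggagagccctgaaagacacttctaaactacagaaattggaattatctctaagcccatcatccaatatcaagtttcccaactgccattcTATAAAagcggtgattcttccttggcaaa
Bpifb1, chr2:154200130-154200379, plus strand: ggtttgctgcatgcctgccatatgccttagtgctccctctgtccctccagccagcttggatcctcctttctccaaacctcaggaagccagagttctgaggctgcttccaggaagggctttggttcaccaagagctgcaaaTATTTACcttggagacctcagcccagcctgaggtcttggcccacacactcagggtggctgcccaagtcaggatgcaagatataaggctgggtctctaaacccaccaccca
Scgb3a1, chr11:49663345-49663594, plus strand: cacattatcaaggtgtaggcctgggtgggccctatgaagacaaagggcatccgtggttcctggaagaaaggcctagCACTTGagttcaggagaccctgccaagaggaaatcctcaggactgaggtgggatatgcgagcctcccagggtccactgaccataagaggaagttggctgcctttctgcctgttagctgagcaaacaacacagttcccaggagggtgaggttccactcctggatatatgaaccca
Reg3g, chr6:78468875-78469124, minus strand: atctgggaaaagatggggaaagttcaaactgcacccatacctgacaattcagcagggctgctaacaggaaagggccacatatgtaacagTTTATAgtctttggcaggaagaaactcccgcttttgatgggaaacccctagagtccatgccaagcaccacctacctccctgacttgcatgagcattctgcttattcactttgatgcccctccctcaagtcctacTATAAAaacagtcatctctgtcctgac
Ltf, chr9:111019042-111019291, plus strand: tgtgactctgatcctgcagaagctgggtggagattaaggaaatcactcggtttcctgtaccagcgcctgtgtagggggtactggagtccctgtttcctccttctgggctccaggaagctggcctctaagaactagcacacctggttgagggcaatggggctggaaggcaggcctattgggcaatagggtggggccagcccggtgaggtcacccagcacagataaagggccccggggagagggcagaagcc

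Bpifa1 had TATTTAC beginning 127 bases before its start and a TATA box at 29 bases. The downstream start of Bpifb1 had TATTTAC at 110 bases. Its other listed start, at the upstream end of the gene, had none of these letters in its window. So 2 of these 6 starts held a forkhead match, and both belonged to the BPI fold genes. The share was 5.76% of all 32851 promoters of that length, from which chromosome 18 was not left out. The member starts were taken without chromosome 18, where Scgb3a2 lies. Scgb3a1 had CAAGTG on the opposite strand at 174 bases, as 11.6% of promoters did on either strand, and Reg3g had TATAAA at 27 bases, and at 161 bases on the opposite strand, as 12.4% of promoters did at least once. The Ltf window held none of the motifs. These are matches of letters only. Bpifa1 and Bpifb1, whose group differences are unlike, share TATTTAC.

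The mucus genes Muc5b and Tff2 had intermediate differences. Muc5b encodes the gel-forming mucin that mouse airways need for mucociliary clearance. It had 7.18, 7.69 and 7.45 in AKR F1 replicates 1 to 3 and 8.50, 8.45 and 7.70 in DBA F1 replicates 1 to 3. The groups touched, with 0.010 between AKR F1 replicate 2 and DBA F1 replicate 3. The log2 difference was -0.77 ± 0.23 (SE, n = 3 each), or 1.71-fold higher in DBA F1.

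Tff2 is a trefoil peptide secreted together with mucins and best known from the stomach. It had 6.37, 7.01 and 6.72 in AKR F1 and 7.75, 7.89 and 7.31 in DBA F1. The groups were 0.30 apart at their nearest arrays. The log2 difference was -0.95 ± 0.20 (SE, n = 3 each), or 1.94-fold higher in DBA F1.

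The antibacterial genes had large differences of unlike firmness. Ltf encodes lactoferrin, an iron-binding protein of gland secretions that is also stored in neutrophil granules. Its signals were 7.85, 8.67 and 8.32 in AKR F1 replicates 1 to 3 and 10.50, 10.09 and 9.46 in DBA F1 replicates 1 to 3. The groups were 0.79 apart at their nearest arrays, the widest gap among the 9 genes. The log2 difference was -1.74 ± 0.29 (SE, n = 3 each), or 3.34-fold higher in DBA F1.

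Reg3g encodes a C-type lectin that binds the cell wall of Gram-positive bacteria and is induced in airway epithelium by infection. It had 6.65, 8.13 and 7.24 in AKR F1 and 9.41, 9.65 and 7.52 in DBA F1. DBA F1 replicate 3 fell among the AKR F1 arrays, 0.62 below AKR F1 replicate 2. The means were 7.34 ± 0.75 in AKR F1 and 8.86 ± 1.17 in DBA F1 (SD, n = 3 each), and the log2 difference was -1.52 ± 0.61 (SE). Its signals spanned 3.01 log2 units over the 6 arrays, more than those of any other of the 9 genes. The Reg genes Reg3a, Reg3b, Reg1 and Reg4 were on the array and did not pass the filter on dim signal.

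Apart from the group difference, the genes shared an order of the arrays inside each group. They were chosen with earlier results of these same arrays known. In 9 of the 10 probe sets, for 8 of the 9 genes, AKR F1 replicate 1 was lowest, replicate 3 came next and replicate 2 was highest, and DBA F1 replicate 3 was the lowest of its group. Both held together in 5.31% of all tested probe sets. The order was read from these same genes, so its frequency among them is a description and carries no test. Scgb1a1 was the exception. Replicates have no order of their own, so this says only that the genes moved together from array to array. The mean over the 9 genes was 9.69, 10.42 and 10.02 on AKR F1 replicates 1 to 3 and 11.24, 11.19 and 10.50 on DBA F1 replicates 1 to 3, so the distance between the nearest arrays of the groups was small beside the distance inside each.

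The spread inside the groups was also large. For 7 of the 9 genes the within-group SD was above that of 95% of tested probe sets. It was 0.98 for Reg3g, 0.58 for Bpifa1, 0.47 for Ltf, 0.46 for Bpifb1, 0.36 for Muc5b, 0.33 for Scgb3a1 and 0.31 for Tff2, against a median of 0.10 over all tested probe sets. The exceptions were Scgb3a2 (0.073) and Scgb1a1 (0.024). Bpifb1 shared the movement inside the groups with Bpifa1 and Ltf but little of the difference between the groups.

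**Figure D2:**
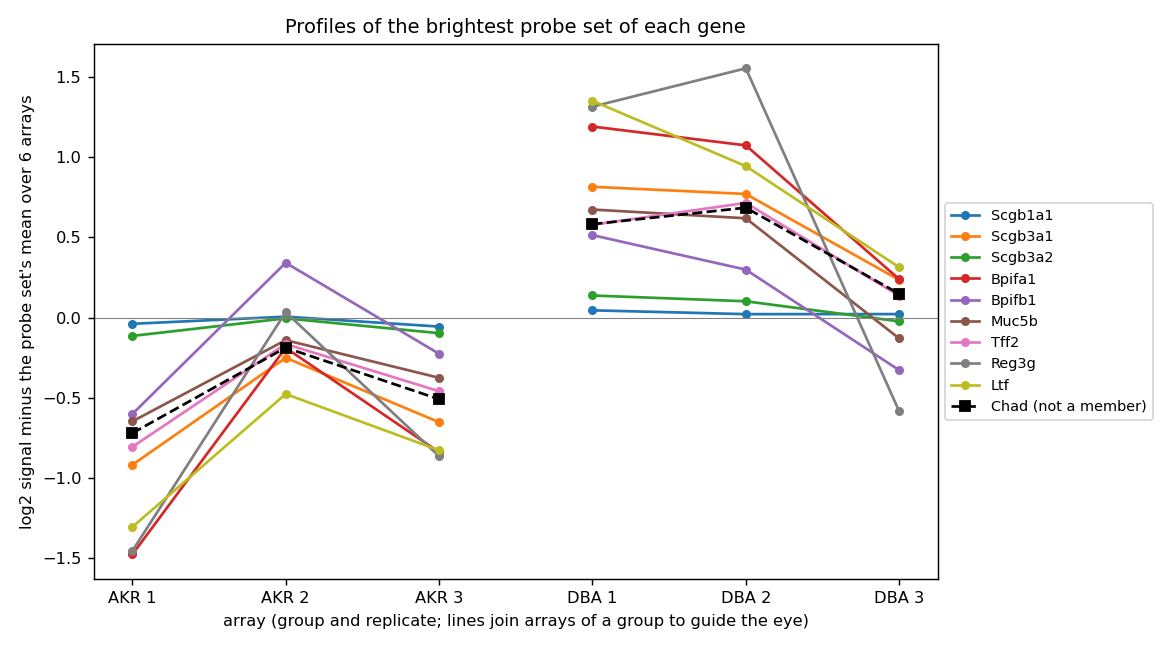
Log2 signal of the brightest probe set of each gene minus its own mean over the 6 arrays (vertical axis), by array (horizontal axis, AKR F1 left of DBA F1); coloured lines are the 9 genes and the dashed black line is Chad, which is not one of them. AKR F1 replicate 2 and DBA F1 replicates 1 and 2 are high within their groups for nearly all lines, and Chad runs on top of Tff2.

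The likeness of profiles was measured as the root mean square gap, in log2 units over the 6 arrays, between signals centred on each probe set's own mean. Among the 9 genes the closest profiles of those that moved were Muc5b with Tff2 (0.14), Scgb3a1 with Tff2 (0.14), and Bpifa1 with Ltf (0.16). For Scgb3a1, Bpifa1, Ltf and Reg3g no tested gene was closer than another of the 9. By rank Bpifb1 was the loosest of the 7 members that spanned 1 log2 unit or more. Its nearest member was Muc5b (0.27), which came only at rank 40 among all tested genes. The genes nearest to Bpifb1 were the smooth muscle myosin light chain Myl9 (0.17), AU040972 (0.17) and the natural killer cell receptor Ncr1 (0.19). By the gap itself Reg3g was the loosest of these 7, with Bpifa1 as its nearest member (0.40). The median gap to genes that are not members was 0.42 for Bpifb1 and 1.11 for Reg3g, so their ranks are not alike in meaning.

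Among genes that are not members, chondroadherin (Chad), a leucine-rich matrix protein of cartilage, had the closest match to any of the 7 members that spanned 1 log2 unit or more, a gap of 0.044 from Tff2. It was also the nearest to Scgb3a1 (0.15). Chad had 7.45, 7.98 and 7.66 in AKR F1 and 8.75, 8.85 and 8.32 in DBA F1. Next to Chad, Tff2 was followed most closely by the peptide transporter Slc15a2 (0.12) and the branched-chain aminotransferase Bcat2 (0.13), and Scgb3a1 by the potassium channel subunit Kcne3 (0.16) and Bcat2 (0.19). For Muc5b the nearest were Mia (0.12), a protein secreted by cartilage, Agr2 (0.13), an endoplasmic reticulum protein needed to make mucins, and the adhesion molecule Ncam1 (0.13).

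In log2 units the genes nearest to the members with the widest swings matched less closely. For Reg3g they were the protease inhibitor A2ml1 (0.47), the collagen of hypertrophic cartilage Col10a1 (0.48) and the lipid droplet protein Plin5 (0.59). For Bpifa1 they were E330020D12Rik (0.37), Chad (0.45) and the antitrypsin gene Serpina1b (0.45), and for Ltf they were E330020D12Rik (0.34), the chaperone Hspa13 (0.42) and the nuclear receptor Ppara (0.43). Members with wide swings also had larger gaps to tested genes in general. The median gap to genes that are not members was 1.11 for Reg3g, 0.97 for Bpifa1 and 0.96 for Ltf. It was 0.50 for Muc5b and 0.55 for Tff2. A small gap is a likeness over 6 arrays that share 2 groups, and says nothing about a shared cell or control.

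Other products of airway secretory cells were compared through a list of 24 genes that holds none of the 9, and 19 of these were tested. One, Chad, was called, higher in DBA F1 (log2 difference -0.94 ± 0.18 SE, n = 3 each, limma adjusted p = 0.0445), against 1.06% of all tested genes in that direction, and 0 were called higher in AKR F1. Its call was lost in 9 of 16 alternatives, among them each fit that left out an array other than DBA F1 replicate 3 (adjusted p = 0.165 without DBA F1 replicate 2). The median log2 difference of the 19 genes was -0.050.

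Agr2, which follows Chad in size of difference, had 4.99, 5.28 and 5.06 in AKR F1 and 6.18, 6.38 and 5.30 in DBA F1, with no overlap and a log2 difference of -0.84 ± 0.27 (limma adjusted p = 0.165). The following were picked after their values were seen. Lypd2 differed by -0.63 (limma adjusted p = 0.0644) and Pigr, the receptor that carries IgA across epithelium, by -0.36 (adjusted p = 0.181). The bronchiolar club cell enzymes Cyp2f2, Cbr2 and Aldh1a1 differed by -0.094, -0.045 and -0.050, and the gel-forming mucin Muc5ac by -0.15. Cckar of the same list differed by -0.41, and Gsta3 and Sec14l3 by 0.046 and 0.045. Of the 19 genes, 15 had higher means in DBA F1 and 4 in AKR F1. The order of arrays shared by the members was found in 7 of the 19 genes, against 5.44% of all tested genes.

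**Figure D3:**
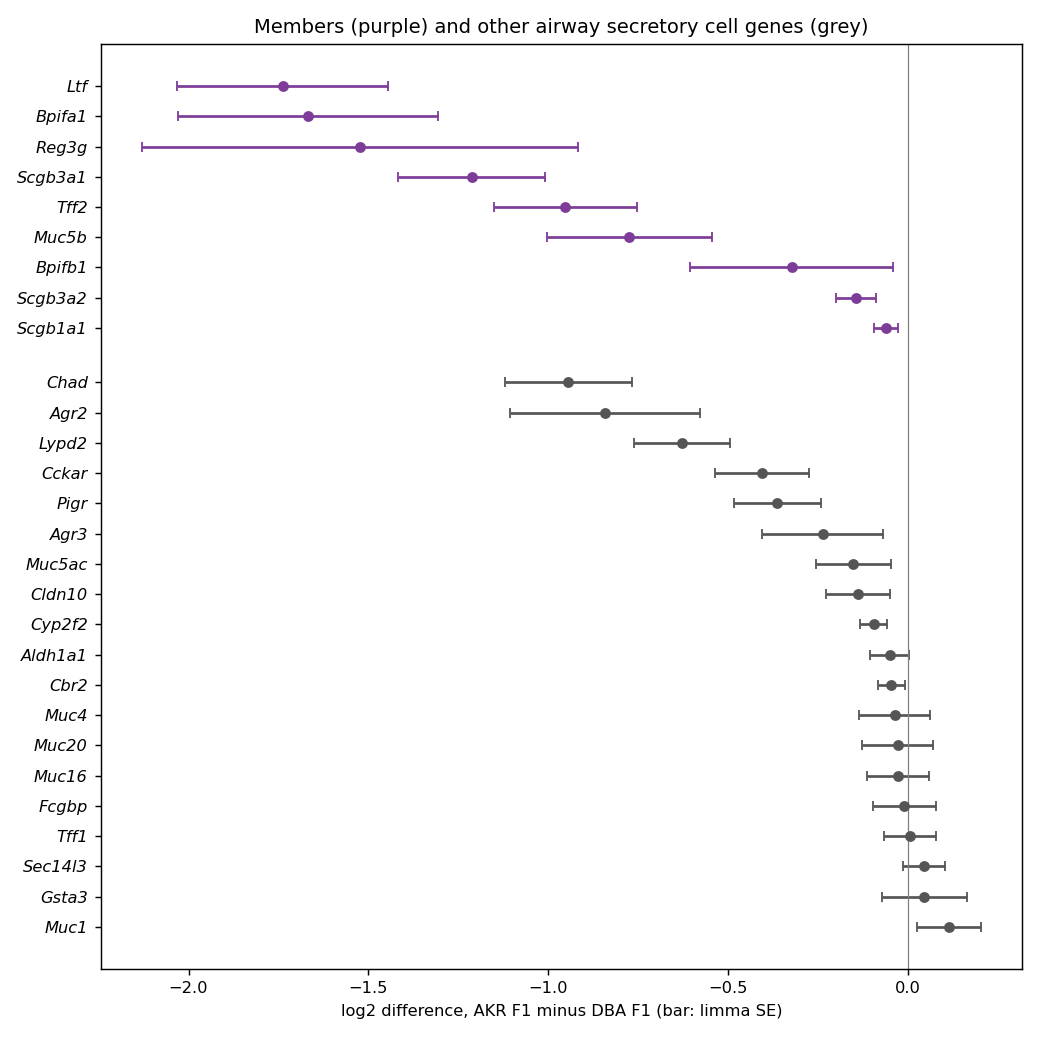
Log2 difference, AKR F1 minus DBA F1 (horizontal axis), with its limma SE as a bar, for the brightest probe set of each of the 9 genes (purple, above) and of 19 other airway secretory cell genes (grey, below). Points left of 0 are higher in DBA F1: the members run from -1.74 for Ltf to -0.059 for Scgb1a1, and the other genes from -0.94 for Chad to 0.11 for Muc1.

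Transcription factors and Notch receptors that set the secretory cell fate were measured in a list of 20 genes, 17 of them tested. In limma 0 were called in either direction, and the median log2 difference was -0.045. The largest difference was that of Sox2, a factor of conducting airway and oesophageal epithelium, with 6.73, 6.81 and 7.07 in AKR F1 and 7.53, 7.45 and 7.29 in DBA F1. It was -0.55 ± 0.11 (SE, n = 3 each) with a limma adjusted p of 0.0515, on the edge of the threshold, and 1 or more genes of this list were called under 5 of the alternatives. Cebpd, an acute-phase factor, differed by -0.31 ± 0.43 with overlapping groups (adjusted p = 0.755).

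Of 35 other antimicrobial and mucosal defence genes, 19 were tested and 0 were called in either direction by limma (median log2 difference -0.19). The largest differences belonged to genes that split the AKR F1 arrays. The beta-defensin Defb4 had 4.28, 4.66 and 9.04 in AKR F1 and 8.37, 9.26 and 8.58 in DBA F1, and the antiprotease Slpi had 10.23, 10.14 and 11.94 in AKR F1 and 11.74, 12.28 and 11.71 in DBA F1. In both, AKR F1 replicate 3 stood with the DBA F1 arrays, as in the squamous genes, and the log2 differences of -2.74 ± 1.17 and -1.14 ± 0.46 had limma adjusted p of 0.274 and 0.255. Without AKR F1 replicate 3 the number called was 4, of which 3 were higher in DBA F1.

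Cytokines, receptors and adaptors that induce such defences were listed as 24 genes, of which 18 were tested. Stat3, the signal transducer below several epithelial cytokine receptors, was called higher in AKR F1 (log2 0.23 ± 0.042 SE, n = 3 each, limma adjusted p = 0.0377), against 1.42% of all tested genes called in that direction. Its signals were 11.14, 11.13 and 11.20 in AKR F1 and 10.94, 10.88 and 10.95 in DBA F1. That is the brightest of its 4 probe sets on the array, and the mean of the tested ones differed by -0.038 (adjusted p = 0.865). The call was lost in 11 of 16 alternatives, among them each fit that left out an array. The median of the list was 0.098, opposite in sign to the members.

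Gland genes gave a mixed picture. Of 16 genes, 7 were tested, 4 with higher means in AKR F1 and 3 in DBA F1 (median log2 difference 0.27). In limma 2 were called, both higher in AKR F1, against 1.42% of all tested genes in that direction. These were the chloride cotransporter Slc12a2 (0.54 ± 0.037 SE, limma adjusted p = 0.00101) and the secreted glycoprotein Azgp1 (0.72 ± 0.12, adjusted p = 0.0338). Slc12a2 had 10.84, 10.83 and 10.83 in AKR F1 and 10.27, 10.31 and 10.31 in DBA F1. Slc12a2 kept its call except with AKR F1 replicate 3 alone against DBA F1, and Azgp1 lost it in 5 of 15 alternatives, among them the fits without AKR F1 replicates 1 or 2 or DBA F1 replicates 1 or 3 (adjusted p = 0.132 without AKR F1 replicate 1). Lactoperoxidase (Lpo), and Bpifa2, Pip and Smr3a, typical salivary or gland products, did not pass the filter on dim signal on these arrays. The counts and median of the list are therefore without them and do not measure gland tissue.

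Markers of other tissues and cells moved with the groups to different degrees, and their part in the member differences was not tested. Squamous and skeletal muscle genes separated AKR F1 replicates 1 and 2 from the other arrays, and the members did not. Of the 11 squamous genes and 8 skeletal muscle genes tested, 0 were called by limma with all arrays, against 9 and 8 without AKR F1 replicate 3. In AKR F1 replicate 3, Bpifa1, Ltf and Scgb3a1 lay between the values of AKR F1 replicates 1 and 2. The differences from DBA F1 of that array alone were -1.70 for Ltf, -1.67 for Bpifa1, -1.62 for Reg3g and -1.26 for Scgb3a1, and without that array they were -1.76, -1.67, -1.47 and -1.19.

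Adipocyte genes separated the groups completely, with list means of 6.79 to 7.41 in AKR F1 and 8.28 to 9.10 in DBA F1, and limma called 6 of 7 tested genes, all higher in DBA F1. These included Pck1, an enzyme of glycerol synthesis (-3.58, limma adjusted p = 0.0233), Cidec, which coats lipid droplets (-1.71, 0.0160), Adipoq, the gene of adiponectin (-1.85, 0.0289), and Fabp4, a fatty acid binding protein (-1.87, 0.0451). The adipose mean was 7.41, 6.79 and 6.86 on AKR F1 replicates 1 to 3 and 8.59, 9.10 and 8.28 on DBA F1 replicates 1 to 3. In AKR F1 it was highest on replicate 1, where the member mean was lowest, and in DBA F1 it was lowest on replicate 3, as the member mean was. The part of adipose tissue in the member differences was not tested. The number of adipose genes called was 0 without AKR F1 replicate 2, 1 without DBA F1 replicate 1, 2 without DBA F1 replicate 2 and 3 without AKR F1 replicate 1.

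Cartilage genes, which mark the trachea and large bronchi, were dim. Their mean was 5.34, 5.57 and 5.43 on AKR F1 replicates 1 to 3 and 5.95, 6.11 and 5.47 on DBA F1 replicates 1 to 3, so AKR F1 replicate 1 was lowest and DBA F1 replicate 3 fell among the AKR F1 arrays. This mean includes Chad, the brightest of the 6 tested, and was not taken without it. The lowest array was AKR F1 replicate 1 for Chad, Acan and Col9a3. It was AKR F1 replicate 3 for Col2a1 and Col9a1, and DBA F1 replicate 3 for Comp. All 6 tested genes had higher means in DBA F1 (median log2 difference -0.31), 3 of 6 showed the members' order of arrays, and Chad, which stands in this list too, was the one called. The proteoglycan Acan differed by -0.40 ± 0.26 (limma adjusted p = 0.474), and 8 of the 14 genes, among them Matn1 and Cnmd, did not pass the filter. The part of large airway tissue in the member differences was not tested.

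Neutrophil granule genes had higher means in DBA F1 for 7 of 8 tested genes, with a median log2 difference of -0.52, and 0 of the 8 had the members' order of arrays. Their mean was 7.83, 8.09 and 8.13 in AKR F1 and 8.43, 7.92 and 9.13 in DBA F1, highest on DBA F1 replicate 3, where Ltf was lowest within its group. One was called, Cd177, higher in DBA F1 (-0.86 ± 0.15 SE, limma adjusted p = 0.0328, lost in 6 of 15 alternatives, among them the fits without AKR F1 replicate 1 or any DBA F1 array), and the granule peptide Camp differed by -0.83 ± 0.25 (adjusted p = 0.156). Mpo and Elane did not pass the filter, and the part of neutrophils in the difference of Ltf was not tested. Ciliated cell genes had a mean of 6.93 over the AKR F1 arrays and 7.09 over the DBA F1 arrays, with 0 of 11 called, a median log2 difference of -0.19, and the largest differences in Tekt4 (-0.45 ± 0.11, adjusted p = 0.0855) and Mlf1 (-0.32 ± 0.19, adjusted p = 0.418). Stomach genes, with 4 tested, and thyroid genes, with 2 tested, gave 0 calls, with medians of 0.023 and 0.19. Their largest differences were those of Gkn3 (0.33 ± 0.080, adjusted p = 0.0967) and thyroglobulin (Tg, 0.33 ± 0.092, adjusted p = 0.123), both dim.

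**Figure D4:**
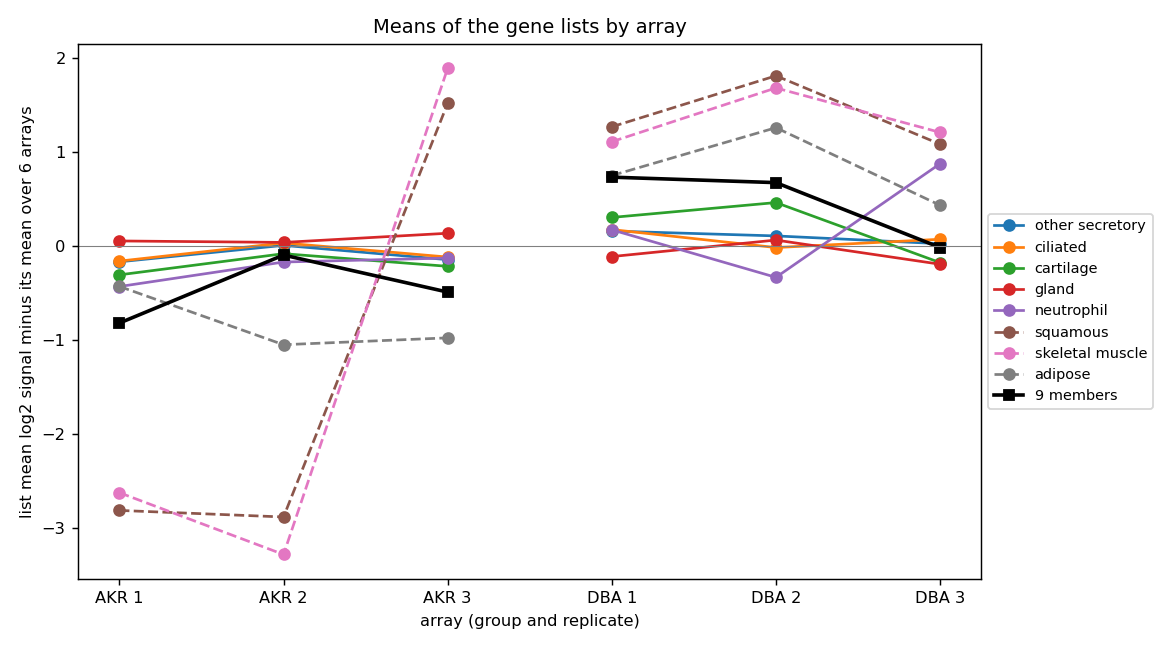
Mean log2 signal of each gene list minus its mean over the 6 arrays (vertical axis), by array (horizontal axis, AKR F1 left of DBA F1), with the mean of the 9 members in black and tissue lists that separate arrays strongly as dashed lines. The cartilage line, which includes Chad, has the members' order of arrays in AKR F1. From DBA F1 replicate 1 to replicate 2 it rises where the member line falls slightly, and on DBA F1 replicate 3 it falls among the AKR F1 arrays. The squamous and skeletal muscle lines jump between AKR F1 replicates 2 and 3, and the neutrophil line peaks on DBA F1 replicate 3.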

How the data were processed

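RNA from whole lung was hybridised to Affymetrix 3' arrays with biotin label, per the labels' protocols. The deposited table holds log2 signals for each probe set on each array. MAS5 and RMA appear in the submitters' processing notes without versions or roles, and the scale was read from the values: medians of 5.46 to 5.49, a maximum of 14.56 and no centring per gene. Values were used as deposited.

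After 64 control probe sets were removed, 45037 remained, 34945 of them with 1 symbol in the platform annotation. The lowest 40% by mean over 6 arrays were left out. A gene was represented by its brightest tested probe set. Groups were compared with limma 3.58.1 in R 4.3.3 (lmFit, eBayes with trend, two-sided, Benjamini-Hochberg over all tested probe sets), which was tested on simulated data. P-values measure the spread between these samples, which may be technical, and the number of arrays limits precision. Members and the 14 lists were chosen with earlier results of these data known. Up to 4 called genes per list, or the 2 with the largest differences, and 3 nearest profiles per member spanning 1 log2 or more were named. Same-numbered arrays had correlations of deviations of 0.31, -0.23 and -0.050, and differently numbered arrays -0.28 to 0.31. With deviations taken from means of 3 arrays, these values cannot decide whether the numbers pair the arrays. The main fit used no pairing. The 16 alternatives varied normalization, filter, eBayes, weights, block, arrays and probe set summary.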

Additional observations from a re-analysis of the deposited data

How the results depend on the processing

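The sign of all 9 member differences was kept in all 16 alternatives, except that Scgb1a1 was 0 after quantile normalization, which sets the brightest probe sets of all arrays equal. Leaving out each array moved counts of calls as follows: all probe sets 198 to 1171, member probe sets 0 to 5, secretory cell genes 0 to 2, regulators 0 to 2, defence genes 0 to 4, induction genes 0 to 0, gland genes 1 to 2, cartilage genes 0 to 1, squamous genes 0 to 9, skeletal muscle genes 0 to 8, adipose genes 0 to 6 and neutrophil genes 0 to 1. With AKR F1 replicate 3 alone against DBA F1, 85 probe sets were called in all, and 0 of the member, secretory cell, induction, gland, cartilage, adipose and neutrophil groups. Array weights gave 1198 probe sets, 4 member probe sets, 2 secretory cell genes, 1 regulator, 1 defence gene and 2 induction genes. Robust eBayes gave 0 member probe sets, 0 secretory cell genes, 1 regulator, 0 cartilage genes and 3 adipose genes. With the replicate number as a block, 1 member probe set, 0 induction genes and 0 neutrophil genes were called, and the other counts stayed within 1.5 times. Without a trend 0 secretory cell, 0 induction and 0 cartilage genes were called, and with probe sets of a gene averaged also 0 of each, where Stat3 reversed to -0.038. Quantile normalization gave 1 regulator and 2 induction genes, median centring 1 regulator, no filter 0 induction genes and 1 skeletal muscle gene, and the 60% filter 1 gland gene and 0 neutrophil genes. The causes were not tested, beyond fewer arrays or probe sets in the fits that leave some out. Scgb1a1 lay near the array maximum, and 6 of the 14 cartilage genes passed the filter on dim signal. The part of either in these results was not tested.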
